A study of Mus musculus with 11 samples.

Results

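The genes described here encode 6 transcription factors of the interferon and cytokine pathways, STAT2, STAT3, IRF1, IRF3, IRF5 and IRF7, listed under these capitals in the deposited tables and written below as the mouse genes Stat2, Stat3, Irf1, Irf3, Irf5 and Irf7. They were chosen by symbol from the 248 genes of the NanoString mouse Inflammation panel, and all 6 were present in both tables. Their NCBI gene IDs are 20847 (Stat2), 20848 (Stat3), 16362 (Irf1), 54131 (Irf3), 27056 (Irf5) and 54123 (Irf7). Female C57BL/6 mice were kept under desiccating stress for 5 days, that is in a drafty room of low humidity with scopolamine in the drinking water to stop tear secretion. All groups underwent this stress, so there is no unstressed reference. During it the eyes received drops 2 times a day of vehicle (phosphate-buffered saline, 3 samples), of the pan-Trk agonist pan at 10 μM (4 samples) or of the TrkC agonist C1 at 10 μM (4 samples). Trk receptors are the tyrosine kinases that bind neurotrophins. One age label reads 3 months for every sample. The other gives 22 to 24 months to pan replicate 4 and every C1 sample, and 2 to 3 months to the rest. The study's methods describe young mice only, so the ages are not settled. The labels name corneal epithelium, but the panel holds no defining gene of it, so this could not be checked.

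STAT proteins lie in the cytoplasm until a cytokine receptor has them phosphorylated, and then enter the nucleus as dimers. STAT2 is part of the complex that type I interferons activate, which binds the interferon-stimulated response element (ISRE). STAT3 carries the signal of interleukin 6 and related cytokines. IRF3 and IRF7 are activated below toll-like and nucleic acid receptors and switch on type I interferon genes, IRF5 acts below the same receptors on inflammatory cytokine genes and is best known from macrophages and dendritic cells, and IRF1 is induced by interferon gamma. Much of the control of STAT3 and IRF3 is by phosphorylation, which transcript counts do not measure.

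The members' promoters were searched for the letters of ISRE and STAT sites, and the windows with a match are shown because Stat2 and Irf1 are known to be induced by interferons. In the RefSeq promoter windows of build GRCm38.p6 (300 bases, reaching 50 bases past the start of transcription), an ISRE-like motif, GAAANNGAAA on either strand, was found for Stat2 but for no other member. A GAS-like motif, TTCNNNGAA, the form that STAT dimers bind, was found for Irf1 at 1 of its 2 windows and for no other member. Of 32851 promoter windows, 3.44% held the first motif and 8.3% the second. The Stat2 stretch lies at chr10:128270248-128270325 and the Irf1 stretch at chr11:53769884-53769972, both on the plus strand, with the motif in capitals.
Stat2: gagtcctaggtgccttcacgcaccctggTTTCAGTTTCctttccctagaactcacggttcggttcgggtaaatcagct
Irf1: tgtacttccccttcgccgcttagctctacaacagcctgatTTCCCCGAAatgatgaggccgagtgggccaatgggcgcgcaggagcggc
The capitals in the Stat2 stretch are the motif read on the opposite strand, and its nearest base is 213 bases before the start. The Irf1 motif ends 82 bases before the start. A match of letters is not a measured site.

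Values are log2 normalized counts, in which the authors scaled the count of a gene's probe by the housekeeping genes of its sample. Probes differ in efficiency, so levels are compared between samples and never between genes. Total counts ranged from 91955 to 133098 in vehicle, from 64156 to 646446 in pan and from 165828 to 525997 in C1 samples, and the highest pan total is that of replicate 4. Against vehicle, treatment with C1 coincided with the older of the conflicting age labels and a higher total in all 4 samples, so their effects cannot be told apart. Nothing in the labels says which mice made up a sample, and p-values measure the spread between these samples.

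For none of the 6 genes was a difference between groups shown beyond the spread between samples. At an adjusted p under 0.05 (limma, Benjamini-Hochberg over all 248 genes), 0 of 6 members were called with pan against vehicle, where 2.02% of all genes were called, 0 of 6 with C1 against vehicle, where 0% were, and 0 of 6 with C1 against pan, where 0.403% were. At an unadjusted p under 0.05 the members' counts were also 0, beside 12.5%, 10.5% and 15.3% of all genes in these comparisons. The samples of both groups were fully separated for 1 member, Irf3 with pan against vehicle, where 10.9% of all genes were separated. With C1 against vehicle and C1 against pan, 0 members were separated, beside 10.1% and 8.06% of all genes. The median log2 fold change of the members was -0.15 with pan, where that of all genes was -0.20, and -0.06 with C1, where that of all genes was -0.02. For C1 against pan it was 0.14, beside 0.23 for all genes. The 2 comparisons with vehicle share their vehicle samples.

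**Figure D1:**
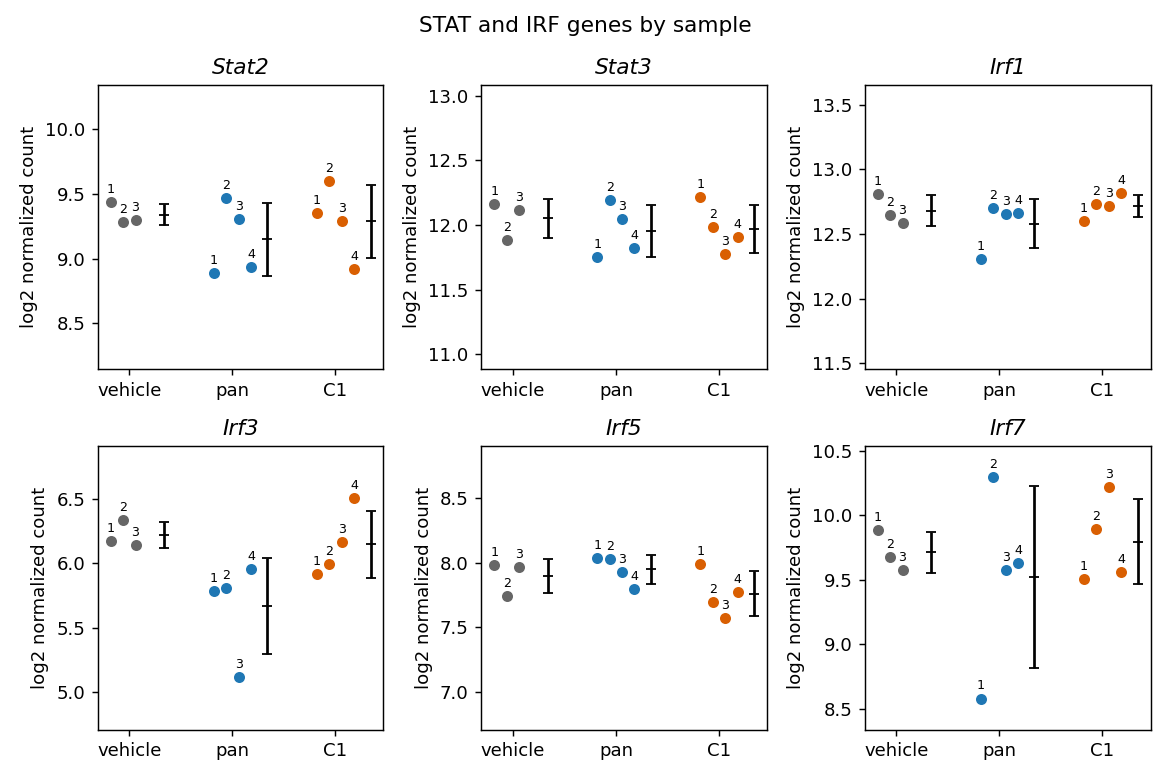
Log2 normalized counts (vertical axis, the same span of values in each panel) of the 6 genes in each sample, numbered by replicate, with the group mean and SD as black bars (n = 3 vehicle, 4 pan, 4 C1). Groups overlap for every gene except Irf3, whose 4 pan samples lie below the 3 vehicle samples, and Irf7 has the widest spread in pan, from 8.58 to 10.30.

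Stat2, the STAT of type I interferon signalling, had log2 values of 9.44, 9.29 and 9.30 in vehicle replicates 1 to 3. In pan replicates 1 to 4 it had 8.89, 9.47, 9.30 and 8.94, and in C1 replicates 1 to 4 it had 9.35, 9.60, 9.29 and 8.92. The vehicle samples were close together, while pan replicates 1 and 4 and C1 replicate 4 lay below them and pan replicate 2 and C1 replicate 2 above. The mean normalized count was 649 ± 37.9 (SD, n = 3) with vehicle. It was 635 ± 121 (SD, n = 4) in C1 and 576 ± 113 (SD, n = 4) in pan samples. Neighbours in this order did not differ beyond their spread. On the log2 scale the difference from vehicle was -0.19 for pan (95% confidence interval -0.73 to 0.35, adjusted p = 0.787, standard error (SE) 0.23). For C1 it was -0.05 (interval -0.48 to 0.38, adjusted p = 0.920, SE 0.18). C1 against pan gave 0.14 (interval -0.37 to 0.65, adjusted p = 0.736).

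Stat3, which carries interleukin 6 signals, had log2 values of 12.16, 11.88 and 12.12 with vehicle. They were 11.75, 12.19, 12.05 and 11.82 with pan, and 12.22, 11.98, 11.77 and 11.90 with C1. In each treated group 1 sample lay above all vehicle samples and at least 1 below them. The mean normalized count was 4267 ± 434 (SD, n = 3) with vehicle. It was 4037 ± 536 (SD, n = 4) in C1 and 3995 ± 571 (SD, n = 4) in pan samples. On the log2 scale the difference from vehicle was -0.10 for pan (adjusted p = 0.915, SE 0.22) and -0.08 for C1 (adjusted p = 0.864, SE 0.16). Between the agonists it was 0.02 (SE 0.19, interval -0.42 to 0.45), so a difference of up to 1.37-fold in favour of C1 lies within the interval.

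Irf1, the interferon gamma-induced factor, had log2 values of 12.81, 12.65 and 12.59 with vehicle and of 12.60, 12.73, 12.71 and 12.81 with C1. With pan it had 12.30 in replicate 1 and 12.70, 12.66 and 12.66 in replicates 2 to 4. The first pan sample, which has the lowest total count, stood below all the other samples. On the log2 scale the difference from vehicle was -0.10 for pan (adjusted p = 0.915, SE 0.21) and 0.03 for C1 (adjusted p = 0.920, SE 0.13). Without pan replicate 1 the pan value was -0.01. The C1 value has the narrowest interval of the members, from -0.26 to 0.33, which holds folds from 0.833 to 1.26. Ifng, the gene of interferon gamma, was called lower with pan (adjusted p = 0.00246), but its probe was counted 6 to 10 times in vehicle samples and 1 to 10 times in pan samples. The first 3 pan samples had 1 count each, under the 3 counts that are compatible with a count of 0.

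Irf3, which starts the type I interferon response, had log2 values of 6.17, 6.33 and 6.14 with vehicle. With pan it had 5.79, 5.81, 5.12 and 5.95, and with C1 it had 5.92, 6.00, 6.16 and 6.50. All pan samples were thus below the lowest vehicle sample, while the C1 samples overlapped with both groups. The mean normalized count was 74.5 ± 5.40 (SD, n = 3) with vehicle. It was 71.7 ± 13.5 (SD, n = 4) in C1 and 52.0 ± 11.9 (SD, n = 4) in pan samples. Pan minus vehicle was -0.55 on the log2 scale (SE 0.26, interval -1.15 to 0.06, adjusted p = 0.460), that is 1.46-fold lower, with 4 of 4 pan samples below vehicle. The 2-sided exact permutation test gave p = 0.0571, the smallest value that 4 samples against 3 allow. C1 minus vehicle was -0.07 (adjusted p = 0.905, SE 0.17), with an interval from -0.48 to 0.34.
C1 minus pan was 0.48 on the log2 scale (SE 0.24, interval -0.07 to 1.03, adjusted p = 0.365), and 3 of 4 C1 samples were above the highest pan sample (exact permutation test, p = 0.0571, where 0.0286 is the smallest possible). Irf3 is the member with the fewest counts, 35 to 43 with vehicle and 17, 23, 12 and 197 with pan. Counting error alone gives a standard error of 0.21 for the difference between pan and vehicle, beside the 0.26 of the fit. The lowest sample, pan replicate 3, rests on 12 counts, and without it the difference from vehicle was -0.37 and that of C1 from pan 0.30.
Macrophage markers were measured beside Irf3. The summed normalized count of 8 macrophage genes was 222 to 357 with vehicle, 161 to 229 with pan and 262 to 369 with C1. On the log2 scale, pan minus vehicle was below 0 for 7 of the 8, beside 173 of all 248 genes. C1 minus vehicle was above 0 for 7 of them, beside 117 of 248, and C1 minus pan for 8 of 8, beside 181 of 248. In the latter C1qa and C1qb had separated groups (limma, adjusted p = 0.256 for both), where 8.06% of all genes were separated. C3ar1 was lower than vehicle with both agonists. Its C1 minus vehicle was -0.95 (adjusted p = 0.418, overlapping groups) and its pan minus vehicle -1.18 (adjusted p = 0.0955). With pan against vehicle it was the only separated marker of the 8, where 10.9% of all genes were separated. None of the 8 was called in any comparison, Trem2 and the T cell gene Cd40lg had at most 3 counts in every vehicle sample, and the part of these markers in the Irf3 values was not tested. The sum of Cd86 and H2-Eb1, genes of antigen-presenting cells, was 159 to 190 with vehicle, 87.8 to 177 with pan and 153 to 248 with C1. Genes of T cells (Cd4, Cd40lg), neutrophils (Cxcr1, Cxcr2) and mesenchymal cells (Twist2) summed to at most 29.8 for each type in any sample, and 0 of these 5 were called. In bulk samples, fewer cells of a type and less RNA per cell cannot be told apart.

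**Figure D2:**
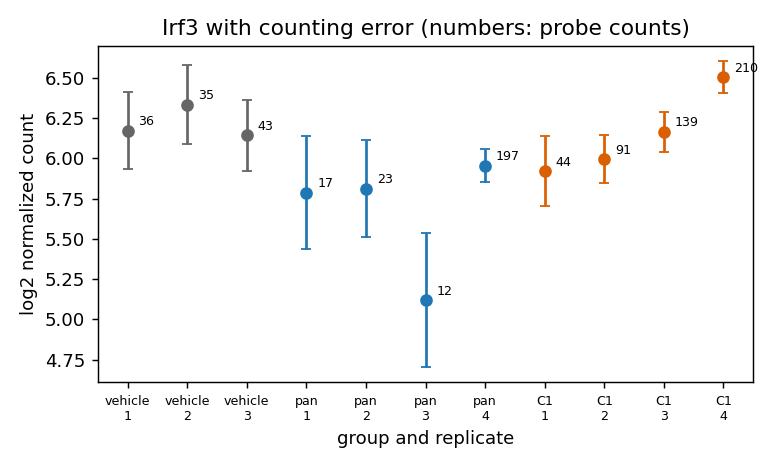
Irf3 log2 normalized counts in the 11 samples by group and replicate, with bars for the SD that counting alone gives and the number of probe counts beside each point. The 4 pan samples lie below the 3 vehicle samples, and the bar of pan replicate 3, at 12 counts, is the longest.

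Irf5, a factor known from macrophages and dendritic cells, had log2 values of 7.98, 7.74 and 7.97 with vehicle and of 8.04, 8.03, 7.93 and 7.79 with pan. With C1 it had 7.99, 7.70, 7.57 and 7.77. The order of the means was pan, vehicle and C1, with 247 ± 19.3 (SD, n = 4), 239 ± 21.3 (SD, n = 3) and 218 ± 27.1 (SD, n = 4) normalized counts. Of the members only Irf5 had a higher log2 mean in pan than in vehicle samples, with a difference of 0.05 (adjusted p = 0.942, SE 0.20) that became -0.03 without vehicle replicate 2. C1 minus vehicle was -0.14 (adjusted p = 0.787, SE 0.15). C1 minus pan was -0.19 (SE 0.18, interval -0.59 to 0.21, adjusted p = 0.621), with 3 of 4 C1 samples below the lowest pan sample (exact permutation test, p = 0.114).

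Irf7, the interferon-induced amplifier of type I interferon production, varied most. It had log2 values of 9.89, 9.68 and 9.58 with vehicle. With pan it had 8.58, 10.30, 9.57 and 9.63, and with C1 it had 9.50, 9.90, 10.22 and 9.56. Both the lowest and the highest of all 11 samples were pan samples, 3.28-fold apart. The mean normalized count was 907 ± 215 (SD, n = 4) in C1 samples, 844 ± 94.1 (SD, n = 3) with vehicle and 799 ± 358 (SD, n = 4) with pan. On the log2 scale the difference from vehicle was -0.19 for pan (adjusted p = 0.915, SE 0.39) and 0.08 for C1 (adjusted p = 0.905, SE 0.21). Without pan replicate 1, whose value rests on 118 counts, the pan value was 0.12. Between the agonists the difference was 0.28 (interval -0.53 to 1.08, adjusted p = 0.681), so a change of up to 2.12-fold lies within the interval.

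**Figure D3:**
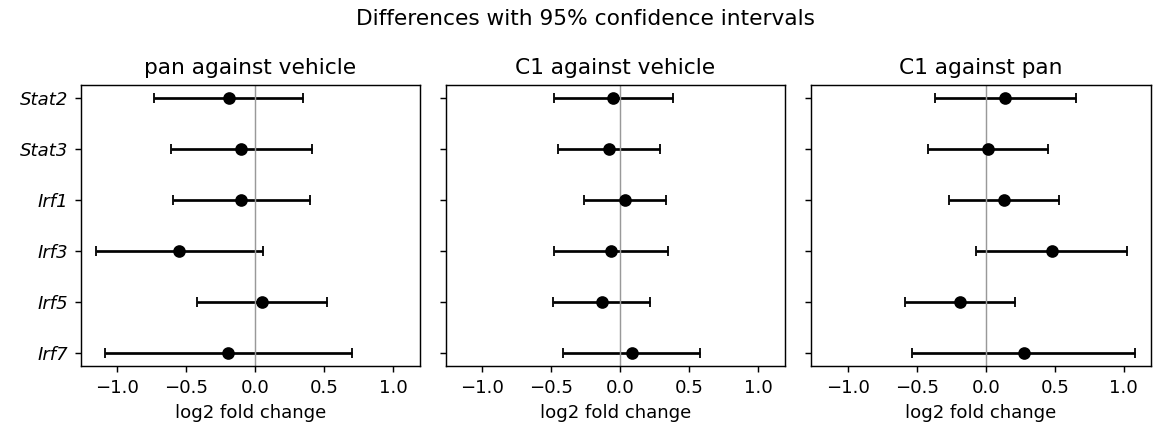
Log2 fold changes of the 6 genes (points) with 95% confidence intervals from limma in pan against vehicle, C1 against vehicle and C1 against pan. Every interval includes 0, and the Irf7 interval of pan against vehicle is the widest, from -1.09 to 0.70.

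The spread between samples was set beside that of the 131 well-measured genes, whose mean log2 value was 5 or more. The median SD of these genes was 0.14 log2 units in vehicle, 0.34 in pan and 0.19 in C1. In pan, Irf7 had an SD of 0.71, and 12 of the 131 genes had a larger one. Irf5 lay at the other end of the pan samples, with an SD of 0.11 and 128 genes above it. In C1 the SD of Irf1 was 0.09, with 119 genes above it, and those of Irf7 and Stat2 were 0.33 and 0.28. In vehicle the members' SDs were between 0.08 for Stat2 and 0.16 for Irf7.

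**Figure D4:**
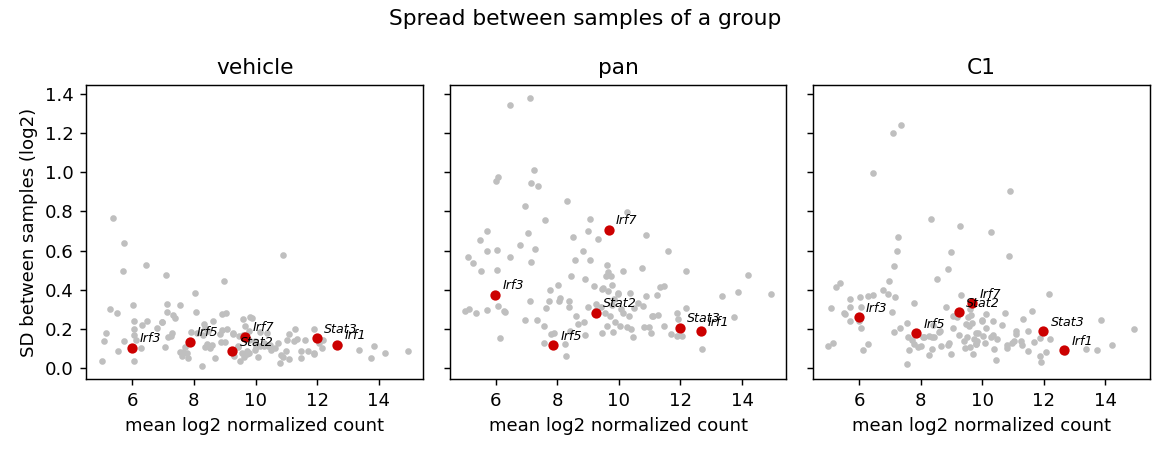
SD between samples of a group (log2 units) against the mean log2 normalized count over all samples, for genes with a mean of at least 5 (grey) and the 6 members (red), by group. Irf7 stands high in pan at 0.71 while Irf5 is near the bottom at 0.11.

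For each member the 2 genes with the most similar pattern over the 11 samples were taken by Pearson correlation of log2 values among the well-measured genes, as a description. For Stat2 they were Ifit3 (r = 0.89) and Ifit1 (r = 0.867), both antiviral genes induced by interferon. The median correlation of Stat2 with the other genes was 0.189. Stat3 was closest to Gnaq (r = 0.933), a G protein subunit, and to Ly96 (r = 0.839), the co-receptor of Tlr4. Irf3 was closest to Tlr2 (r = 0.866) and to the complement gene C1qa (r = 0.771). Irf5 was closest to Tgfb1 (r = 0.843) and to the receptor gene Tgfbr1 (r = 0.841). Irf1 was closest to Arg1 (r = 0.898) and Grb2 (r = 0.881), and Irf7 to Rac1 (r = 0.81) and Irf1 (r = 0.79). All genes of a sample share its normalization factor. After each sample was centred on its median, the values of Stat2, Stat3, Irf3 and Irf5 with both partners stayed between 0.752 and 0.909, as did Irf1 with Arg1 at 0.761, while Irf1 with Grb2 came to 0.449, Irf7 with Rac1 to 0.287 and Irf7 with Irf1 to 0.17.

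The level of each member was then set against the mean log2 value of 10 interferon-stimulated genes, out of a list of 14 (Iigp1, Mx2, Cxcl9 and Cxcl10 had mean log2 values under 5). This mean was lowest in pan replicate 1, at 8.00, and C1 replicate 4, at 8.08, and highest in pan replicate 3, at 9.29, so it varied within both treated groups. Stat2 was correlated with it over the 11 samples (Pearson r = 0.792, permutation p = 0.00732, adjusted p = 0.0439 over 6 relations). Spearman's rho was 0.655 (permutation p = 0.0334, adjusted p = 0.201). Ifit3 and Ifit1, the closest genes to Stat2 in these same samples, are among the 10 genes of the mean. The relation was also chosen after values were seen, so these p-values are descriptive and not a separate test. Without pan replicate 1 and C1 replicate 4, the samples farthest from the median, r was 0.528 over 9 samples (exact permutation p = 0.142). The low p over 11 samples thus rests on those 2 samples, which had the 2 lowest values of both measures. The deviations of both measures from their group means had r = 0.836 over the 11 samples. Among the 6 samples with the younger age label r was 0.70 (exact permutation p = 0.146), and with the older label there were 5, fewer than the 6 over which a correlation was given. After median centring r was 0.737 over all samples.
Irf7 had r = 0.632 with the same mean (permutation p = 0.0391, adjusted p = 0.117) and rho = 0.482 (permutation p = 0.138, adjusted p = 0.415). Without the 2 farthest samples r was 0.284 (exact permutation p = 0.456). For Stat3, Irf1 and Irf5 r lay between -0.182 and 0.423, and Irf3 had r = -0.446 (permutation p = 0.143, adjusted p = 0.286). The Irf3 value was -0.696 after median centring and -0.712 for deviations from group means, and neither was tested. Only the Stat2 relation had an adjusted p under 0.05, by Pearson correlation and not by rho, and its mean includes the 2 genes closest to Stat2.

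**Figure D5:**
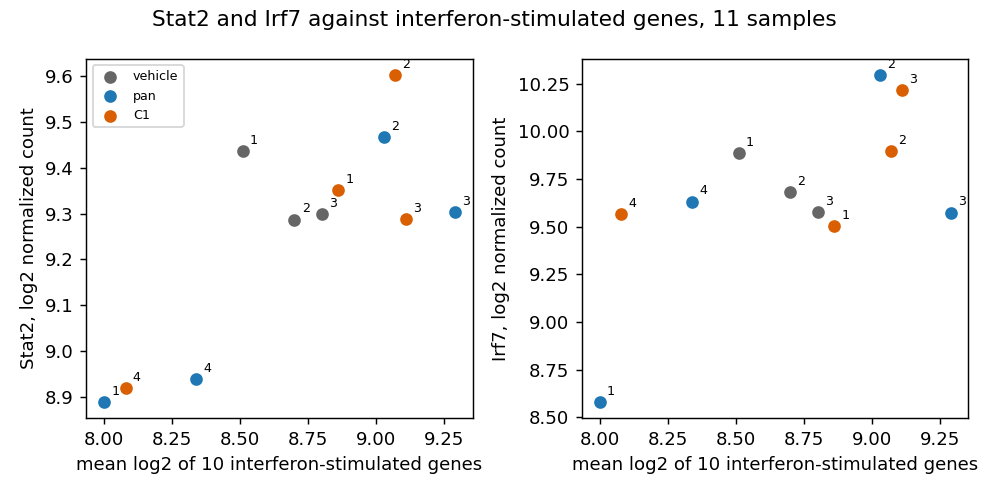
Stat2 (left) and Irf7 (right), log2 normalized counts, against the mean log2 value of 10 interferon-stimulated genes in the 11 samples, numbered by replicate and coloured by group. Stat2 is low in the 3 samples with the lowest means (pan replicates 1 and 4 and C1 replicate 4), and Irf7 is lowest in pan replicate 1.

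The other genes of these pathways gave few calls, as did all 248 genes (2.02% with pan, 0% with C1 and 0.403% with C1 against pan). Of 14 interferon-stimulated genes, 0 passed an adjusted p of 0.05 in any comparison (limma), while 2 with pan, 3 with C1 and 1 with C1 against pan had an unadjusted p under 0.05, beside 12.5%, 10.5% and 15.3% of all genes. Their median on the log2 scale was -0.04 for both pan and C1 minus vehicle, beside -0.20 and -0.02 for all genes. Of the 2 with pan, Cxcl9 had 5 to 6 counts per vehicle sample and Mx2 had 7 to 10. The 3 with C1 were Oasl1, Cxcl9 and Ifi27l2a, each with separated groups. Oasl1, a member of the oligoadenylate synthetase-like family, had a mean of 2224 normalized counts with vehicle, 2057 with pan and 3340 with C1. C1 minus vehicle was 0.59 on the log2 scale (adjusted p = 0.211, SE 0.15) and C1 minus pan 0.71 (adjusted p = 0.256, SE 0.20), and its C1 samples were above all others. Cxcl9, a chemokine gene, gave -1.17 for C1 minus vehicle (adjusted p = 0.252), and Ifi27l2a gave 0.81 (adjusted p = 0.436).
Among the 3 interferon ligands, Ifng was the only call, with pan. Of 7 receptors and adaptors that signal to IRFs, 0 were called. Against vehicle, 2 of the 7 were above 0 with pan and 3 with C1, beside 75 and 117 of all 248 genes. Tlr3 had a mean of 118 normalized counts with vehicle, 139 with pan and 248 with C1. Its C1 minus vehicle was 0.97 on the log2 scale (limma, adjusted p = 0.436), with overlapping groups. Tlr7, the endosomal RNA receptor above Irf7, had 32.5 normalized counts with vehicle, 5.65 with pan and 9.52 with C1 (adjusted p = 0.0912 and 0.370 against vehicle), and its probe was counted 6 to 24 times with vehicle, 1 to 29 times with pan and 5 to 30 times with C1. Of 9 cytokines and receptors that signal through STAT3, and of 5 STAT3 target genes, 0 were called in any comparison. Among the targets, the log2 value of Bcl6 was -0.72 for pan minus vehicle (adjusted p = 0.583, SE 0.52). That of Cebpb was 0.33 for C1 minus vehicle (adjusted p = 0.452, SE 0.15), where all 4 C1 samples were above the vehicle samples. The targets' median was 0.13 with pan and 0.09 with C1.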

How the data were processed

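The authors counted probes on the NanoString nCounter mouse Inflammation panel and normalized them in ROSALIND to the geometric mean of housekeeping probes, and they left out samples that failed quality control. The deposited values are log2 normalized counts of 248 genes in 2 tables, 1 per agonist, which both hold the vehicle samples with identical values. The authors' own columns of fold changes, p-values and adjusted p-values were not used. Housekeeping genes were not analysed here. Values were within 0.01 of whole multiples of the value of 1 count, from which counts were recovered. Of the gene IDs, 247 were found in RefSeq.

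Each comparison was fitted with limma 3.58.1 (R 4.3.3) on the 2 groups, without filter, pseudocount or covariate, with Benjamini-Hochberg adjustment over all genes. The code was tested on simulated data. Exact permutation tests and correlations used scipy 1.17.1, the latter with 100000 resamples for 11 samples. Members and lists were chosen with earlier results of these data known. Genes named were the members, the 2 most similar genes of each and at most 3 per list and comparison by p, and those further singled out were chosen after their values were seen. The relation to interferon-stimulated genes was also chosen after values were seen. Alternatives were median centring, a filter at a mean log2 of 5, a pseudocount of 10, background subtraction (the mean of the 62 lowest genes, floor of 1), a joint fit of all 3 groups, a block on replicate number, a mean-dependent prior variance, log2 total count as a covariate, voom weights and leaving out each sample. Intervals from counts cover counting error only.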

Additional observations from a re-analysis of the deposited data

Results flagged for a closer look

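Among the 12 groups of 4 samples, 1 held a sample far from the others: Irf1 in pan replicate 1 had a log2 value of 12.30, against 12.66 to 12.70 in the other pan samples, a gap of 0.886 of the group's range, over Dixon's 95% critical value. By chance about 5% of such groups hold one. The same sample had the lowest Irf7, Stat2 and Stat3 values, the highest Irf5 value and the lowest total count, and no cause was tested.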

How the results depend on the processing

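The number of called members was 0 in all 3 comparisons under each of the 49 recomputed fits. Of 294 recomputed log2 fold changes of members, 276 kept their direction and 18 turned, all of them of members that were not called, and the cause was not tested. With median centring, which moved all genes by 0.07, -0.07 and -0.14 in the 3 comparisons, Irf1 turned to -0.036 with C1 and to -0.004 in C1 against pan, and Stat3 to -0.122 in C1 against pan. With log2 total counts as covariate, the C1 values against vehicle turned to 0.085 for Stat2, 0.009 for Stat3, -0.062 for Irf1 and -0.12 for Irf7. Irf3 kept its direction with this covariate but moved from -0.071 to -0.297 for C1 minus vehicle and from 0.478 to 0.292 for C1 minus pan. The labels do not say whether replicate numbers pair the samples. Same-numbered samples had correlations of deviations from -0.05 to 0.57, highest between pan and C1 for replicates 1 (0.51) and 4 (0.57). With the replicate block, where a replicate 4 without a vehicle partner drops out of the difference, Stat2 with C1 turned to 0.073, Irf3 was -0.64 with pan, and the count of calls stayed at 0.

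With 1 sample left out, the ranges that crossed 0 were, against vehicle with pan, -0.026 to 0.102 for Irf5 and -0.452 to 0.119 for Irf7. With C1 they were -0.155 to 0.073 for Stat2, -0.013 to 0.10 for Irf1, -0.19 to 0.005 for Irf3 and -0.06 to 0.179 for Irf7. In C1 against pan they were -0.066 to 0.097 for Stat3 and -0.038 to 0.533 for Irf7. Irf3 with pan stayed below 0, from -0.644 to -0.366, and its adjusted p over all alternatives ranged from 0.149 to 0.839. Depth limits Irf3 most, since vehicle and pan replicates 1 to 3 had 12 to 43 counts.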
